A study of Mus musculus with 6 samples.

Results

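The miR-200 family (miR-200a, miR-200b, miR-200c, miR-141 and miR-429) together with miR-203, miR-205 and miR-31 are miRNAs known chiefly from epithelia. They were picked here by name, both arms of each precursor and undetected names included, and 14 of the 690 miRNA names on the array belonged to them. The samples were cells sorted from SMA-GFP mice, in which the smooth muscle actin gene drives a green fluorescent protein, and in both groups cells carrying CD45 (blood cells) or CD31 (endothelium) had been removed. GFP-high cells, labelled as myofibroblasts, were taken from wounds on day 7 (3 arrays, numbered 3, 4 and 6 in the labels), and GFP-low cells, labelled as fibroblast-like, came from dermis (3 arrays, numbered 1, 2 and 5). Tissue and GFP level changed together, the sort as described used no epithelial marker, and the labels state neither strain, age nor whether the preparations came from separate animals. The p-values therefore reflect only how far these preparations scatter, and that scatter may be technical.

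Epithelial cells keep their state partly through the miR-200 family, which represses the transcription factors ZEB1 and ZEB2, and these factors in turn repress the miR-200 genes. In skin, miR-203 rises as keratinocytes leave the basal layer and restricts their proliferative potential by repressing p63, and miR-205 is abundant in epidermis and hair follicle progenitors. miR-31 is known as a miRNA that is induced in keratinocytes of injured or inflamed epidermis. Fibroblasts, pericytes and other mesenchymal cells are known for low levels of the miR-200 family.

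The mature sequences below, from RefSeq on GRCm38.p6, are those of the arms whose signals the results turn on. Each is written 5′ to 3′ with its seed, bases 2 to 8, in capitals, because the seed sets which transcripts a miRNA pairs with.
miR-203-3p: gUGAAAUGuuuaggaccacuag
miR-205-5p: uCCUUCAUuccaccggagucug
miR-31-5p: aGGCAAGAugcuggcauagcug
miR-31-3p: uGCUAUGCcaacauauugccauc
miR-200b-3p: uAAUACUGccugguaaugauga
miR-200c-3p: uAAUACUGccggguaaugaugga
miR-429-3p: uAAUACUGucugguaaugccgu
miR-200a-3p: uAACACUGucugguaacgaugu
miR-141-3p: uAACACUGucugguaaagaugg
The 3p arms of miR-200b, miR-200c and miR-429 shared 1 seed, and those of miR-200a and miR-141 shared another. Aligned without gaps from their 5′ ends, these 5 arms were equal at 17 to 20 of 22 bases in each pair, so that probes for 1 of them may also have bound another. No seed was shared between the miR-200 family's 3p arms and miR-203-3p, miR-205-5p or miR-31-5p.

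The 8 precursor genes lie on 4 chromosomes. Mir203 is on chromosome 12 (mature 3p arm at chr12:112130927-112130948, plus strand), between Aspg and Kif26a. It is on the chromosome named in the series title, but 1850 kb beyond Dio3, outside the imprinted domain. Mir205 (5p arm at chr1:193507503-193507524, minus strand) overlaps the noncoding gene Mir205hg, and Mir31 (5p arm at chr4:88910614-88910635, minus strand) overlaps the noncoding gene Gm49890. Mir200b, Mir200a and Mir429 form 1 cluster on chromosome 4, all overlapping the noncoding gene Gm13648 (200b-3p at chr4:156055685-156055706, minus strand). Mir200c and Mir141 lie 337 bp apart on chromosome 6, between Phb2 and Ptpn6 (200c-3p at chr6:124718324-124718346, minus strand).

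The authors' deposited table of log2 values disagrees with the array titles in its numbering. Its columns 1, 2 and 3 held the values of wound arrays 3, 4 and 6, and its columns 4, 5 and 6 those of skin arrays 1, 2 and 5, each apart from a constant and within 9.06e-06. All groups here follow the array titles. The arrays had 210 to 233 names well above background in wound and 188 to 224 in skin, and 0 saturated spots. The 75th percentile of the detected probes, used to scale them, was 781.6 to 1134 intensity units on the wound arrays and 1232 to 1749 on the skin arrays. Negative control spots averaged -2.49 to -1.39 units in wound and -4.08 to -2.07 in skin. With 3 arrays a group, precision is limited by the number of arrays.

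The comparison of wound with skin cells asked how the epithelial miRNAs differed between myofibroblasts and the GFP-low cells of dermis. In the wound cells mmu-miR-203-3p and mmu-miR-205-5p fell below detection, and mmu-miR-31-5p rose above it, each on 3 of 3 arrays (the species prefix is left out from here on). The other 11 names reached that level on no array, among them every miR-200 family name. For comparison, 65.2% of the 221 miRNAs tested across the array passed at a limma adjusted p under 0.05, 44.3% as higher and 20.8% as lower in wound. Those shares belong to the scaling used here, under which the median tested miRNA differed by 0.37 on the log2 scale. That median became -0.19 with the 75th percentile of all probes, 0 with median scaling or quantile normalization, and -0.09 without scaling. An excess of higher levels in wound is therefore not read from these shares. Of the 14 epithelial names 3 could be tested, 1 was higher and 2 were lower. A name entered the test only if each array of at least 1 group showed it well above background, and these 3 entered through the group where they were high, so their count says nothing beyond that.

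miR-203-3p, the differentiation-linked keratinocyte miRNA, had background-subtracted signals of 2.26, 2.2 and 3.64 intensity units on wound arrays 3, 4 and 6, against 85.6, 124 and 103 units on skin arrays 1, 2 and 5. All 3 skin arrays lay far above all 3 wound arrays, and 1 of the 3 wound values exceeded the highest negative control name. After scaling, the signal was 0.271% ± 0.0611 of an array's 75th percentile in wound and 7.26% ± 2.45 in skin (SD, n = 3 each). No wound spot carried the scanner's flag for signals well above background, against 17 of 19, 20 of 20 and 19 of 19 spots on the skin arrays.

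On the log2 scale, with signals below a common floor of -5.31 (2.51% of the 75th percentile) raised to it, the wound minus skin difference of miR-203-3p was -1.48 (SE 0.24, adjusted p = 0.00404 in limma). That is -1.85 from the median difference of 0.37 over all tested miRNAs. All wound values lay at the floor, where no spread is measured, so the size of the difference is set by the floor. Its SE and p rest on the floor as well, and the same holds below wherever 1 group lay at the floor. The adjusted p in limma was 1.96e-05 with the floor 4 times as low and 0.641 with it 4 times as high. Because no wound array measured miR-203-3p, the fold has only a bound, set by the lowest signal on each array that was still well above background. On that basis, and under the scaling used here, the level was on average at least 2.31-fold lower in wound cells. This bound and those below compare group means on the log2 scale, so they need not hold for each pair of arrays.

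miR-205-5p, the epidermal progenitor miRNA, had -1.34, -3.51 and -3.67 units on wound arrays 3, 4 and 6, against 54.4, 87.4 and 75.3 units on skin arrays 1, 2 and 5. The wound signals were below 0 on each array and the groups did not overlap. Its scaled signal was -0.273% ± 0.088 of the 75th percentile in wound and 5.03% ± 1.82 in skin (SD, n = 3 each). The log2 difference was -0.94 (SE 0.26, adjusted p = 0.0258 in limma), with wound again at the floor. The level was on average at least 1.59-fold lower in wound cells. No decrease is bounded between skin array 1 and wound array 3. The log2 level of -4.76 on that skin array was below the lowest detected signal of that wound array, -4.66. This call rested on single arrays: the adjusted p in limma was 0.102, 0.0732 and 0.0726 without wound array 3, 4 or 6 and 0.0527 without skin array 5. The difference stayed between -1.06 and -0.62 with any 1 of the 6 arrays left out.

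miR-31-5p ran the other way. It had 49, 81.6 and 55.8 units on wound arrays 3, 4 and 6, against 1.46, 0.84 and 3.92 units on skin arrays 1, 2 and 5. All wound values were above all skin values, and 15, 18 and 14 of 20 spots were flagged as well above background on the wound arrays, against 0 of 20 on each skin array. On 1 skin array it still exceeded the highest negative control name. The scaled signal was 6.23% ± 1.29 of the 75th percentile in wound and 0.13% ± 0.0825 in skin (SD, n = 3 each). The log2 difference was 1.29 (SE 0.16, adjusted p = 0.00144 in limma), here with skin at the floor. The level was on average at least 2.73-fold higher in wound cells. Measured from the median of the tested miRNAs, the difference was 0.91.

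Each of these names was measured by 2 probes, and both probes gave the same order of groups. The brighter miR-203-3p probe had 3 to 6.82 units in wound and 131 to 188 in skin, and its other probe 0.462 to 1.4 in wound and 40.5 to 60 in skin. The brighter miR-205-5p probe had -4.89 to -0.318 units in wound and 74.5 to 123 in skin, while the dimmer one had -4.91 to -2.13 in wound and 34.3 to 51.7 in skin. On skin array 1 only 42.9% of that dimmer probe's spots were flagged as well above background, so it was not detected there. For miR-31-5p the ranges were 67.4 to 120 units in wound and 0.798 to 6.81 in skin for 1 probe, and 30.3 to 43.6 in wound and -0.34 to 1.02 in skin for the other. That other probe had 50% and 40% of its spots flagged on wound arrays 3 and 6 and was detected on neither.

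**Figure D1:**
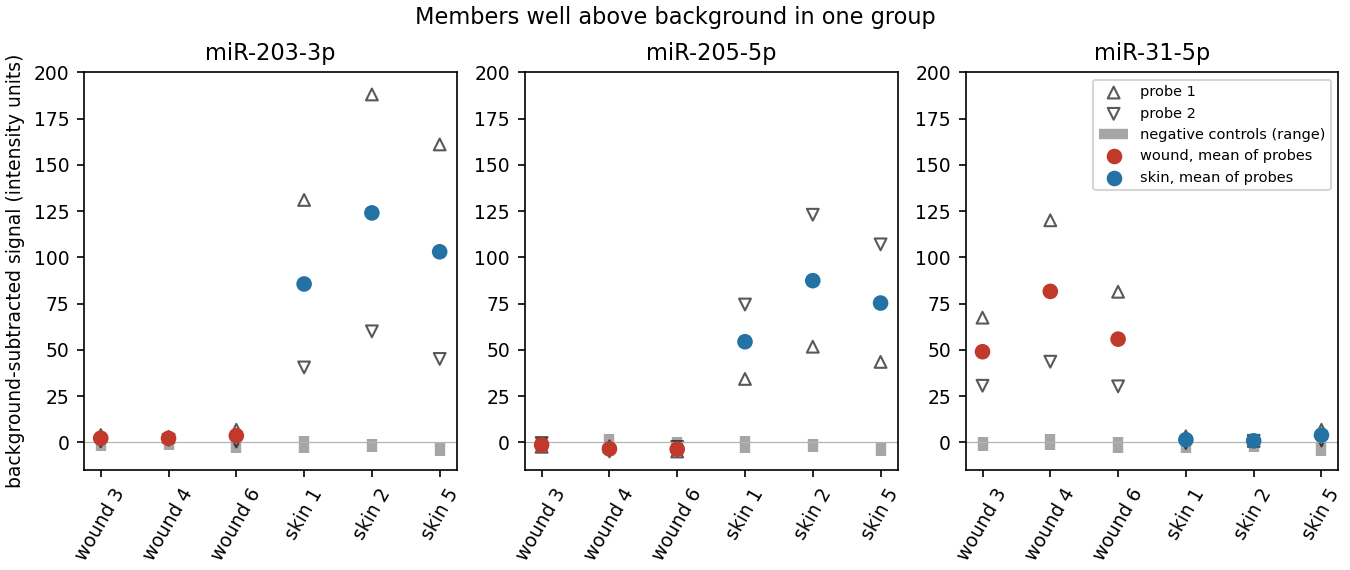
Background-subtracted signal in intensity units (vertical axis, linear) of miR-203-3p, miR-205-5p and miR-31-5p on each of the 6 arrays, wound arrays in red at the left of each panel and skin arrays in blue at the right. Triangles are the 2 probes of each miRNA, filled circles their mean, and grey bars the range of the 7 negative control names. The circles of miR-203-3p and miR-205-5p lie near 0 on wound arrays and between 54.4 and 124 on skin arrays, and those of miR-31-5p between 49 and 81.6 on wound arrays and near 0 on skin arrays.

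In bulk RNA of this kind, fewer cells of a type and less of an RNA per cell cannot be told apart, which applies to all 3 differences. As to other cell types, the 7 blood cell names and 7 striated muscle names on the array included 0 that could be tested, and 6 and 7 of them were well above background on no array. The exception was miR-451a, an erythrocyte miRNA, which was well above background on 2 skin arrays. The summed signal of the epithelial names was 5.41% ± 1.38 of the 75th percentile in wound and 14.4% ± 4.41 in skin (SD, n = 3 each). That sum mostly restates the 3 tested names, which differed in opposite directions. In skin miR-203-3p and miR-205-5p averaged 7.26% and 5.03%, and in wound miR-31-5p averaged 6.23%. The summed signal of the blood cell names was 1.75% to 2.24% in wound and 0.701% to 2.62% in skin. Of the 2 endothelial names, miR-126-3p was well above background on 3 of 3 arrays in each group, and miR-126-5p on none. Their summed signal was 5.6% to 7.78% in wound and 3.68% to 5.89% in skin. The difference of miR-126-3p was 0.49 (limma adjusted p = 0.11). Its direction turned across 5 ways of scaling the arrays (-0.22 to 0.49), with 0 of them passing. Whether keratinocyte RNA among the sorted cells had a part in the differences of miR-203-3p and miR-205-5p was not tested.

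The slide carried wound array 3 and skin arrays 1 and 2 in its first row of wells, and wound arrays 4 and 6 and skin array 5 in its second. Within the first and second row, the difference was -1.61 and -1.23 for miR-203-3p, -1.03 and -0.78 for miR-205-5p, and 1.32 and 1.27 for miR-31-5p. With the row as a block in limma the differences were -1.42, -0.9 and 1.3 for the same 3 miRNAs. In that fit miR-205-5p no longer passed (adjusted p = 0.0639), while miR-203-3p (adjusted p = 0.0134) and miR-31-5p (adjusted p = 0.00659) did.

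**Figure D2:**
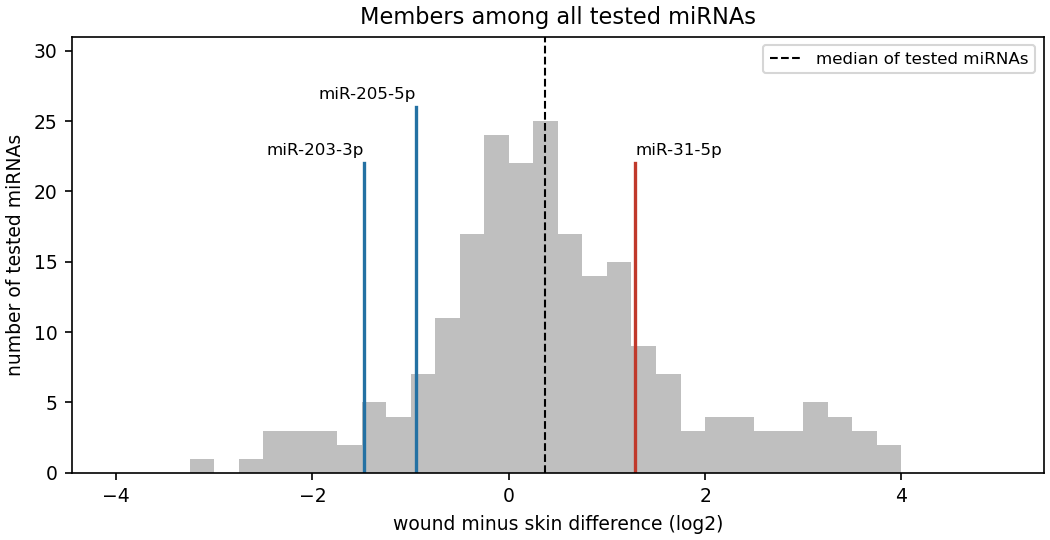
Histogram of the wound minus skin log2 difference (horizontal axis) over the 221 tested miRNAs, with the number of miRNAs on the vertical axis. The dashed line is their median of 0.37, and vertical lines mark miR-203-3p (-1.48) and miR-205-5p (-0.94), both left of the median, and miR-31-5p (1.29), right of it.

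The miR-200 family was dim in both groups, and its signals are given here in intensity units without a floor. miR-200b-3p had -2.75, 0.334 and -1.88 units on wound arrays 3, 4 and 6, against 13.7, 13 and 14.7 units on skin arrays 1, 2 and 5. miR-429-3p, from the same cluster, had 2.91, 2.3 and 4.65 units on the wound arrays and 12.5, 12 and 16.6 on the skin arrays. miR-200a-3p, the third miRNA of that cluster, had -0.954, -1.27 and 0.892 units in wound and 6.19, 6.96 and 10.6 in skin. The skin values of these 3 names lay above all wound values and above the highest of the 7 negative control names on each skin array, although miR-429-3p also did so on 2 wound arrays.

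The chromosome 6 pair lay closer to the controls. miR-200c-3p had -2.73, -3.2 and -3.73 units on wound arrays 3, 4 and 6 and 1.69, 6.09 and 3.96 on skin arrays 1, 2 and 5. miR-141-3p had 0.95, 0.697 and 1.27 units in wound and 3.11, 2.84 and 6.28 in skin. The groups did not overlap for either, but each exceeded the highest negative control name on only 2 of 3 skin arrays. The 5 guide arms of the family summed to -2.58, -1.14 and 1.2 units in wound and 37.3, 40.8 and 52.2 in skin.

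None of these 5 arms was well above background on any array by the spot flags. Agilent's own detection flag per miRNA, a less strict call, was set for miR-200b-3p on skin array 5 alone, with a total signal of 14.99, and for no miR-200 name on the wound arrays. At this signal over background the size of a difference in the miR-200 family could not be measured, and no fold is given. For each of the 5 arms an exact two-sided permutation test over the arrays gave p = 0.1, the smallest that 3 against 3 arrays allow.

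The arms that are usually degraded were near the negative controls, with 1 exception. miR-31-3p, the partner of miR-31-5p in the same precursor, had 5.79, 12.4 and 7.77 units on wound arrays 3, 4 and 6, against -2.92, -2.33 and -1.27 units on skin arrays 1, 2 and 5. It exceeded every negative control name on 3 of 3 wound arrays and on 0 of 3 skin arrays, so the signals of both arms of this precursor were higher in wound. However, miR-31-3p had no flagged spot on any array and was not detected by Agilent's flag, so no fold is given for it. The 2 arms lie in the hairpin as follows, with 5p then 3p in capitals (chr4:88910557-88910662, minus strand).
Mir31: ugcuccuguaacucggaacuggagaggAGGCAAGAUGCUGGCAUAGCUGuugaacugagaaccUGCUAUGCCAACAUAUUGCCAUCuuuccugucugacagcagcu
miR-203-5p, by contrast, had -1.99 to 0.0864 units in wound and 0.585 to 1.31 in skin, and miR-141-5p, miR-200a-5p, miR-200b-5p and miR-200c-5p overlapped between the groups, at -6.22 to -1.52 units in wound and -6.53 to 2.22 in skin. No name of miR-205-3p or miR-429-5p was among the 14.

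**Figure D3:**
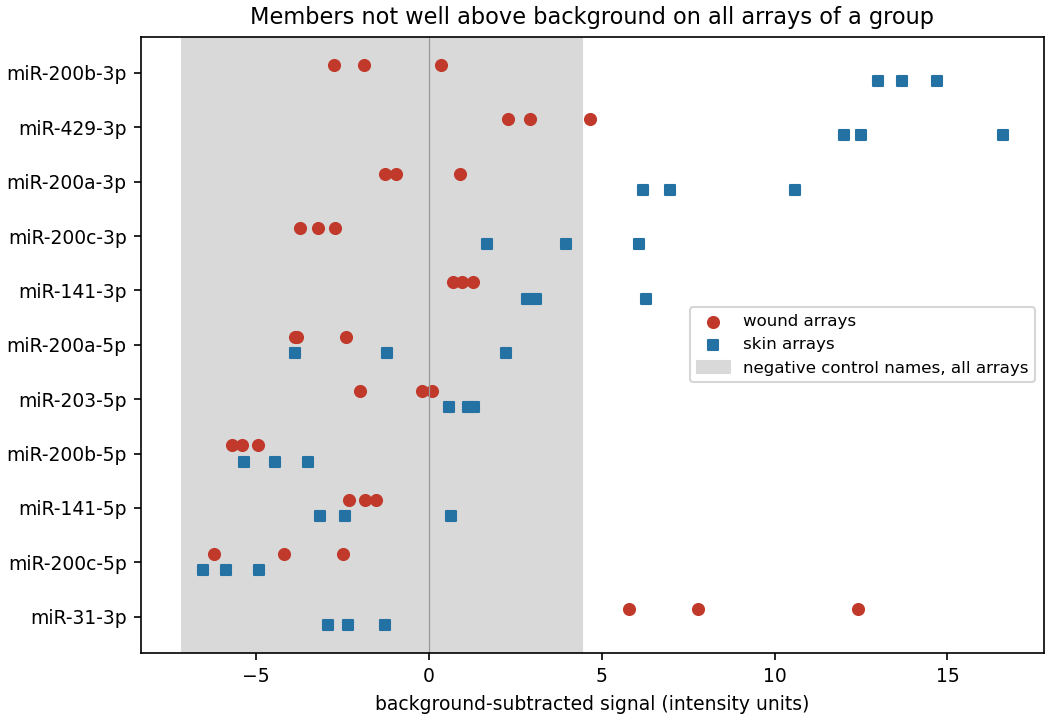
Background-subtracted signal in intensity units (horizontal axis, linear) of the 11 epithelial names that were not well above background, with wound arrays as red circles above and skin arrays as blue squares below in each row. The grey band spans the negative control names over all arrays. The miR-200b-3p, miR-429-3p and miR-200a-3p squares lie right of the band and of their circles, and for miR-31-3p the circles lie right of the band.

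Among these 11 names, 6 had all wound values below all skin values in intensity units and 1 had them above. Over all 469 names that were not tested, 14.7% were separated in the lower direction and 11.3% in the higher. Of the 6 names 5 are the miR-200 family's 3p arms, which are transcribed from 2 clusters and have similar sequences, so they are not independent counts. With scaled signals 7 of the 11 were lower, the added name being miR-200b-5p at values below 0, against 15.4% of all names not tested, and 1 was higher, against 12.2%.

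Other miRNAs known from epithelia were mostly undetected. Of 11 names of that list (miR-183, miR-96, miR-182, miR-375, miR-184, miR-192, miR-194, miR-215, miR-135b and miR-224) only miR-224-5p could be tested, and it differed by 0.17 (SE 0.08, adjusted p = 0.11 in limma). Of the others 8 were well above background on no array, while miR-192-5p was so on 2 skin arrays and miR-194-5p on 1 skin array, and neither on a wound array. The summed signal of the list was 4.27% to 4.56% of the 75th percentile in wound and 3.88% to 4.92% in skin.

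A list of miRNAs known to be induced in wound-edge or inflamed keratinocytes, which many other cell types also express, was chosen with earlier results known. Of its 9 tested names 8 were higher in wound and 0 lower, against 44.3% and 20.8% of all tested miRNAs. The list's median difference was 1.22, against 0.37 over all tested miRNAs. Across 5 ways of scaling the arrays these medians were 0.65 to 1.22 and -0.19 to 0.37, and 4 to 8 names of the list were higher and 0 lower. Over the same scalings 110 to 144 of the 221 tested miRNAs were called in either direction. Shares by direction are given only for the scaling used here, so the lower counts are not set against the array. The names with the smallest p were miR-132-3p and miR-21a-5p. miR-132-3p, a stimulus-induced miRNA, differed by 2.03 (SE 0.05, adjusted p = 3.7e-06 in limma), with skin at the floor. It was well above background on 3 of 3 skin arrays, but its signal there was raised to the floor, which set this size, SE and p. miR-21a-5p, abundant in many injured tissues, reached a log2 level of 4.25 in wound against 2.02 in skin, a log2 difference of 2.23 (SE 0.10, adjusted p = 3.2e-05 in limma) that ranged from 1.55 to 2.23 across the scalings. miR-31-5p differed in the same direction as these names, as did 44.3% of all tested miRNAs. Whether keratinocytes had a part in these differences was not tested.

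The mesenchymal list was also chosen with earlier results of these data known. Its values are therefore only described, and do not test the label of the sorted cells. Of the list's 14 names 12 were tested, of which 4 passed as higher and 4 as lower. Over all tested miRNAs those shares were 44.3% and 20.8% under the same scaling. Across the 5 scalings 1 to 5 of the list's names were higher and 4 to 5 lower. The list's median difference of 0.11 turned sign across the scalings (-0.46 to 0.11). Its summed signal was 2010% to 2220% of the 75th percentile in wound and 2610% to 3040% in skin. Of the 14 names 11 were well above background on all 6 arrays, while miR-10b-3p and miR-145a-3p were so on none, and miR-214-5p lay at the floor in both groups. The smallest p belonged to miR-10b-5p (-3.17, adjusted p = 8.83e-06 in limma) and miR-100-5p (-1.87, adjusted p = 1.34e-05), both of which are also expressed outside mesenchyme and were lower under all 5 scalings. miR-143-3p, known from smooth muscle, differed by 1.24 (adjusted p = 3.18e-05 in limma) and was also called under all 5, at 0.56 to 1.24. The other names called higher were miR-152-3p (0.67), miR-145a-5p (0.66) and miR-22-5p (0.22), which passed under only 2, 2 and 1 of the 5. The other names called lower were miR-199b-5p (-0.76) and miR-199a-3p (-0.63), each under all 5. The melanocyte names were miR-204-5p, well above background on 3 skin arrays and 0 wound arrays (-0.20, adjusted p = 0.164), and miR-211-5p, on none.

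The tested miRNAs whose log2 profile over the 6 arrays was nearest to each epithelial miRNA, by root mean square difference after centring, were the following. For miR-203-3p they were miR-23a-3p (0.17), miR-125b-5p (0.20) and miR-181b-5p (0.21), against a median of 1.00 over all tested miRNAs. All 3 were lower in wound, by -1.57, -1.41 and -1.33, and unlike miR-203-3p they were well above background on all wound arrays. For miR-205-5p they were miR-24-3p (0.21), miR-140-3p (0.22) and miR-181d-5p (0.22), against a median of 0.78. Of these only miR-181d-5p was, like miR-205-5p, well above background on 3 skin arrays and 0 wound arrays. For miR-31-5p they were miR-34c-5p (0.10), miR-125a-5p (0.11) and miR-155-5p (0.12), against a median of 0.63. miR-34c-5p, a p53 target, was like miR-31-5p well above background on 3 wound arrays and 0 skin arrays. Since values at the floor carry no order, these distances describe levels as processed here. The neighbours were picked for likeness to differences whose size the floor set, so their direction and size follow from that choice.

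The size of the 3 differences, their SE and their p depended on how dim signals were treated. Under the 5 scalings each of the 3 miRNAs passed in the same direction, with differences of -1.72 to -1.48 for miR-203-3p, -1.18 to -0.94 for miR-205-5p and 0.78 to 1.29 for miR-31-5p. With the floor 4 times as low they were -3.48, -2.94 and 3.29, and with the floor 4 times as high each was 0 to 2 decimals, since every array lay at the floor apart from skin array 2 for miR-203-3p, which was barely above it. With Agilent's total signal per miRNA, which is the basis of the authors' deposited table, they were -4.09, -3.55 and 3.72. With normexp background correction on the spots' median signals and an offset of 50, the directions of miR-203-3p (0.94) and miR-205-5p (0.96) turned, without passing (limma adjusted p = 0.183 and 0.179). The median over all tested miRNAs was 1.02 there.

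**Figure D4:**
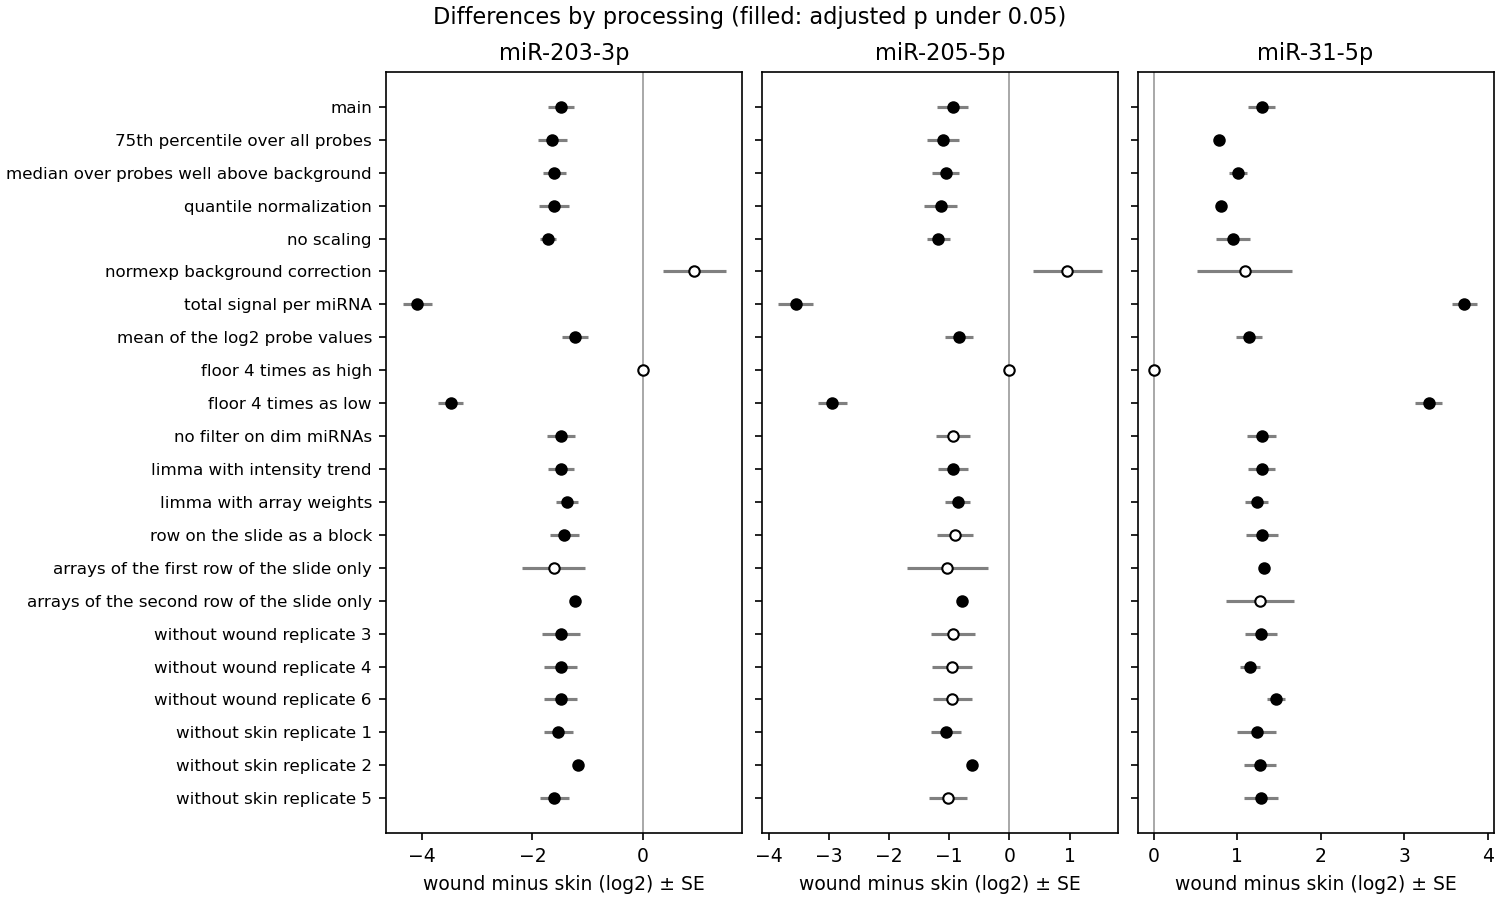
Wound minus skin log2 difference with its SE (horizontal axis) of miR-203-3p, miR-205-5p and miR-31-5p under each processing (rows; the authors' table taken by column number is left out), filled where the adjusted p was under 0.05. miR-203-3p lies left of 0 except with normexp and the high floor, miR-205-5p likewise but with open circles in further rows, and miR-31-5p lies right of 0 except with the high floor.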

How the data were processed

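The 6 one-colour Agilent miRNA arrays, all on 1 slide, were read with Feature Extraction 10.7.3.1, per the file headers. The deposited files give each spot's background-subtracted intensity (linear), before any normalization across arrays. A second deposited table holds log2 values; no source states its processing, and for 656 matched names they equal the log2 total signal apart from a constant per array.

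Spots without outlier flags were averaged per probe (1928 probes), scaled to each array's 75th percentile among probes detected on every array, averaged over the 1 to 4 probes of a name, raised to a floor (log2 -5.31, the median over arrays of the lowest detected signal) and taken to log2. A probe counted as detected, or well above background, with flags on over 50% of its spots. A name was tested when a probe was so on all arrays of a group. limma 3.58.1 (R 4.3.3) compared the groups, two-sided, with Benjamini-Hochberg adjustment over 221 names at 0.05. The script was tested on simulated data. Nearest profiles are the 3 tested miRNAs per member with the smallest root mean square difference. Named miRNAs are all members, these neighbours and every tested name of the other epithelial list. The 2 smallest p of the wound keratinocyte and mesenchymal lists were also named. Others were added after their values were seen. They are miR-451a, miR-192-5p, miR-194-5p, miR-143-3p, the other called mesenchymal names, the undetected or floored mesenchymal names and the marker names. Members and lists were chosen with earlier results of these data known, so no p is given for sums or counts over them. Sequences matched by name for 14 of 14. The alternatives covered scaling, background, floor, filter, summary, limma settings, slide row, left-out arrays and the authors' table. Figures were drawn with matplotlib 3.10.9.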

Additional observations from a re-analysis of the deposited data

How the results depend on the processing

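Normexp gave 23 called miRNAs in limma and a floor 4 times as high 80, against 144; the first row of the slide alone gave 62, the second 72, and the authors' log2 table with columns taken by number 0 of 201 (1 at an unadjusted p under 0.05). Called epithelial names numbered 0 with normexp, the high floor and that table (0 each at an unadjusted p under 0.05 in limma), 0 where only names well above background on all arrays were tested, since none qualified, and 1 in the first row, against 3. For miR-203-3p the difference was 0.94 with normexp, 0 with the high floor, -1.61 in the first row (not passing) and 2.97 by the table's numbers. For miR-205-5p it was 0.96, 0, -1.03 and 2.77 in the same settings, -0.94 without a filter and -0.9 with the row as a block, the last 2 not passing. For miR-31-5p it was 1.09 with normexp, 0 with the high floor, 1.27 in the second row (not passing) and -3.49 by the table's numbers. The high floor lies above these names' signals, apart from miR-203-3p on skin array 2, which barely exceeds it; by the table's numbers the columns of both groups are mixed; a single row leaves 3 arrays. The cause of the normexp reversals was not tested; the offset divided by the arrays' percentiles differed by 0.25 on the log2 scale between wound and skin. The wound minus skin number of epithelial names well above background was -1, -1.67 when any flagged spot counted and -1.33 by Agilent's flag.

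With 1 array left out, 127 to 138 miRNAs and 2 to 3 epithelial names were called, and the differences were -1.6 to -1.18 for miR-203-3p, -1.06 to -0.62 for miR-205-5p and 1.15 to 1.46 for miR-31-5p. The detection difference stayed at -1, and the difference in the summed epithelial signal, added after the data were seen, was -10.9% to -6.98% of the 75th percentile, against -8.95%. No paired analysis was possible because the groups share no sample number. Signal over background limits all 14 names: the 3 tested ones were at most 124 units, and the miR-200 names at most 16.6.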
